A study of Homo sapiens with 12 samples.

Results

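GATA2, GATA3, GATA4, GATA5 and GATA6 are transcription factor genes, and all 5 were found among the 19970 protein-coding genes placed on chromosomes 1 to 22 and X in the GRCh38.p14 RefSeq gene table. They were read in peak lists from MKL-1 cells, a cultured line of Merkel cell carcinoma, a skin cancer. The assay was CUT&RUN, in which an antibody directs a nuclease to cut out the chromatin it is bound to. The EPZ011989 group received 3 µM EPZ011989, which inhibits EZH2, the enzyme that methylates H3K27, in 1% ethanol over 6 days. The vehicle group had 1% ethanol alone, and both groups had their medium renewed on day 3. Samples were divided after harvest between antibodies to H3K27me3, to H3K4me3 and control IgG, which gave 12 libraries, 2 per antibody and treatment. The labels do not say that a replicate number marks the same culture across antibodies. All come from 1 cell line. The spread between replicates is thus at most that of repeated treatment and library making, and no p-value reaches further. The sample labels do not say whether replicates were treated separately.

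GATA factors bind DNA through a pair of zinc fingers that recognise the GATA core. GATA2 and GATA3 act mainly in blood and neural lineages, with GATA2 needed in haematopoietic stem cells and GATA3 in T cells, mammary and hair follicle epithelium. GATA4, GATA5 and GATA6 act in heart, gut and other endoderm. H3K27me3, the mark written by EZH2 within Polycomb repressive complex 2, lies over silenced developmental regulators, whereas H3K4me3 marks gene starts that are active or poised. A start that carries both is called bivalent.

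Promoter sequences from RefSeq were matched for GATA2, GATA3 and GATA6, 3 of the 5 genes, and the 250 bases before 4 of these starts (GRCh38.p14) are shown because the H3K4me3 results turn on which of them was marked. There GATA2 has 2 starts, a distal one at the gene's end and a proximal one 4671 bp further downstream. GATA6 has 1, and for GATA3 the one with the most CpG of its 6 is shown. All are written 5′ to 3′ on the strand of the gene, and capitals mark CpG.
GATA2 distal start, chr3:128493202-128493451, minus strand: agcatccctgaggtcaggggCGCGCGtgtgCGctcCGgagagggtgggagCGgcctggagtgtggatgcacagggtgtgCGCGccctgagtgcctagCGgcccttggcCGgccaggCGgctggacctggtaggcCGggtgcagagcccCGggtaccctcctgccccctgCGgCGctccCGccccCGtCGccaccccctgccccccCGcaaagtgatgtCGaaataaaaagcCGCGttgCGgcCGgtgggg
GATA2 proximal start, chr3:128488531-128488780, minus strand: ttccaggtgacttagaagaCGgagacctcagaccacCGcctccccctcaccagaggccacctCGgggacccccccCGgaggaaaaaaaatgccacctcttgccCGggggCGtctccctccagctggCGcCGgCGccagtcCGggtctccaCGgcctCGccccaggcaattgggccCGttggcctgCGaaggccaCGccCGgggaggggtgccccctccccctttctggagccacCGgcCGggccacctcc
GATA6 start, chr18:22169339-22169588, plus strand: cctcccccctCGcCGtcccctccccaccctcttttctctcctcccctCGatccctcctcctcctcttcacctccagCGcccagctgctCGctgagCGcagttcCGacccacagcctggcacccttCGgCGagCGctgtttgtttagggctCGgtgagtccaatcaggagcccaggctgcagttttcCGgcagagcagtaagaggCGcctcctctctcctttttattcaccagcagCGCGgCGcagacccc
GATA3 start, chr10:8053391-8053640, plus strand: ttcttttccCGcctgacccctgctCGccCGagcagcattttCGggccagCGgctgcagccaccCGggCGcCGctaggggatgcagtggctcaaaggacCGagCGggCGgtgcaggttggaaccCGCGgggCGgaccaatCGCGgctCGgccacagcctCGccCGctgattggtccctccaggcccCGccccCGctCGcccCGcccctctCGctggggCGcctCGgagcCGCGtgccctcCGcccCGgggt

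The GATA2 distal and proximal stretches hold 24 and 18 CpG, that of GATA6 16 and the GATA3 stretch shown 30, against a median of 11 over 34961 stretches of the same length before RefSeq starts. At least 30 CpG were found in 12.5% of those stretches, and at least 16 in 41.0%. The 6 GATA3 stretches, none of which had H3K4me3 in any library, hold between 4 and 30 CpG. AGATAA or AGATAG as well as TGATAA or TGATAG, words of the GATA binding motif that share its core, were searched on both strands, and 22.3% of all stretches hold at least 1. None of the 9 stretches before GATA2, GATA3 and GATA6 starts holds any.

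Depth is known only through the lists themselves. The H3K27me3 lists hold 363 and 22 peaks with EPZ011989 and 40782 and 44287 in vehicle. The H3K4me3 lists hold 23106 and 21086 peaks with EPZ011989 and 22726 and 23804 in vehicle. A background solved from the peaks' own fold and p came to 0.373 and 0.148 fragments per base for H3K27me3 with EPZ011989, against 1.12 and 1.63 in vehicle, and to 1.48 and 1.24 for H3K4me3 with EPZ011989, against 0.572 and 0.857 in vehicle. All 12 marker genes of the Merkel cell lineage that were read, among them ATOH1, SOX2, INSM1 and KRT20, had H3K4me3 in both EPZ011989 and both vehicle libraries. Of other cell types, 3 of 4 fibroblast marker genes had H3K4me3 in both libraries of either treatment. The immune cell markers CD3E and PTPRC had none in any library, and the monocyte marker CD14 had it in all 4. Of the endothelial markers PECAM1 had none, CDH5 had it in all 4 libraries and KDR in both EPZ011989 libraries alone.

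In vehicle, all 5 GATA genes carried H3K27me3, and with EPZ011989 no peak was left at any of them. Each gene was given, per library, the count of bases inside peaks out of the 10002 within 2500 bp of either gene end. GATA2 had 0 bp in both EPZ011989 libraries and 6835 and 9509 bp in the vehicle libraries. GATA5 had 0 bp in both EPZ011989 libraries, against 4967 and 5001 bp in vehicle. GATA6 had 0 bp in both EPZ011989 libraries and 5001 bp in each vehicle library. At GATA3 and GATA4 the EPZ011989 libraries had 0 bp and the vehicle libraries the whole 10002 bp. The groups overlap at none of the 5 genes, and 76.8% of the 9600 genes tested likewise had both EPZ011989 values below both vehicle values. IgG libraries of either treatment listed no peak there, and no H3K27me3 peak lay within 20 kb of any of the 5 genes with EPZ011989.

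The differences were tested by limma over those 9600 genes, which are all that had a H3K27me3 peak in any library, and calls were made at a Benjamini-Hochberg adjusted p under 0.05. All 5 GATA genes were called lower, in a comparison in which 60.2% of tested genes were called lower and 0% higher. Peaks in both vehicle and neither EPZ011989 library, the state of all 5, were found at 36.8% of all genes. Of the 7371 genes with H3K27me3 in both vehicle libraries, 7343 were in this state. The loss at the 5 genes is thus what nearly all genes so marked in vehicle showed. The median difference was −8172 bp over the 5 genes and −2235 bp over all tested genes. GATA2 differed by −8172 ± 1299 bp (SE; limma adjusted p = 0.0368). It was the least firm call: without EPZ011989 replicate 1 or 2 the same difference gave limma adjusted p = 0.256 each time. For GATA5 the difference was −4984 ± 20.3 bp (SE; limma adjusted p = 8.58e-06). Its covered window end was full or nearly full in vehicle, which limits the spread. Over the whole gene with 2500 bp to each side, the GATA5 difference was −5321 ± 321 bp (SE; limma adjusted p = 0.00360). GATA6 differed by −5001 ± 13.6 bp (SE; limma adjusted p = 3.21e-06). GATA3 and GATA4 had a limma adjusted p of 2.11e-21. At GATA3, GATA4 and GATA6 both replicates of either treatment had the same value, with window ends either full or empty, so that these p-values hold no spread of the gene's own. Background was lower in the same EPZ011989 libraries, as given above, and its part in the missing peaks was not tested.

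**Figure D1:**
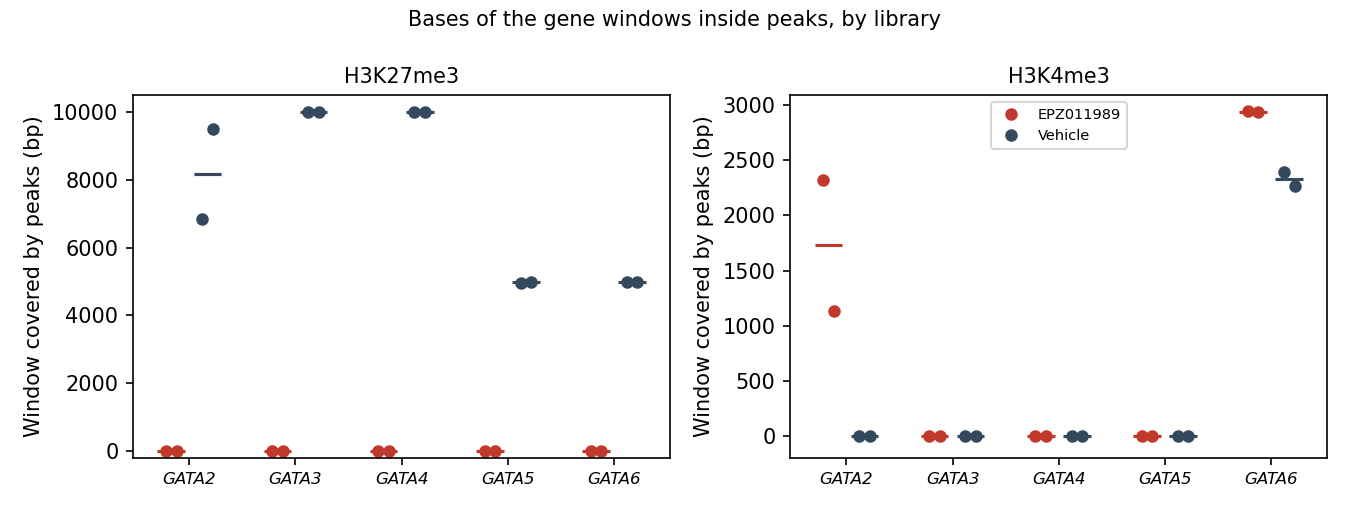
Bases of each 10002 bp gene window inside peaks (y axis, bp) for H3K27me3 (left) and H3K4me3 (right). Each point is 1 library, with EPZ011989 in red to the left of vehicle in dark blue, and the bar is the mean of 2 libraries. H3K27me3 is at 0 bp with EPZ011989 for all 5 genes, while H3K4me3 is present with EPZ011989 at GATA2 and GATA6 alone among the 5.

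The vehicle H3K27me3 regions differed in reach from gene to gene. GATA4, a cardiac and endodermal regulator on chromosome 8 (chr8:11676935-11760002), lay inside 1 peak of 133.6 kb in vehicle replicate 1 and 134.3 kb in replicate 2. Only 56 and 67 peaks of those lists, or 0.137% and 0.151%, were at least as wide. It ran 38.9 kb past the low-coordinate end of the gene in both libraries, and 11.6 and 12.4 kb past the high-coordinate end into NEIL2, a DNA repair glycosylase gene. GATA3 (chr10:8045333-8075198) also lay wholly inside 1 peak, of 51.8 and 57.4 kb, and so did the starts of GATA3-AS1, a non-coding RNA gene on the other strand. All 6 GATA3 starts in RefSeq were inside it.

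GATA2 (chr3:128479422-128493201) was covered over 95.2% and 100.0% of its length by a peak of 23.4 kb in vehicle replicate 1 and 26.4 kb in replicate 2. This peak reached 10.3 and 10.6 kb upstream of the distal start and took in both starts. Its fold over local background, the authors' value for a peak within its own list, was 14.2 and 16.2. In the same lists the fold was 8.78 and 9.25 at GATA4, 7.85 and 9.95 at GATA6, 7.43 and 8.60 at GATA3 and 7.23 and 7.26 at GATA5. Of the 5 genes GATA2 thus had the H3K27me3 peak of highest fold in both vehicle lists, and GATA4 the widest peak. These lists give no highest point within a peak, and the peaks compared differ in width.

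At GATA6 and GATA5 only one of the 2 gene ends was covered. GATA6 (chr18:22169589-22202528) had a peak of 21.9 kb in vehicle replicate 1 and 16.4 kb in replicate 2 around its start, and none of the 5001 bp around its other end was covered. Smaller peaks lay within the gene, 1 in replicate 1 and 4 in replicate 2, so that 41.6% and 48.4% of its length was covered. Others lay past its far end and outside the window, the nearest of them 3174 bp wide in replicate 1 and 952 bp in replicate 2. GATA5 (chr20:62463497-62475995) had the smallest region, of 6.32 kb in replicate 1 and 7.95 kb in replicate 2, over the high-coordinate end, with 19.7% and 25.4% of the gene covered.

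**Figure D2:**
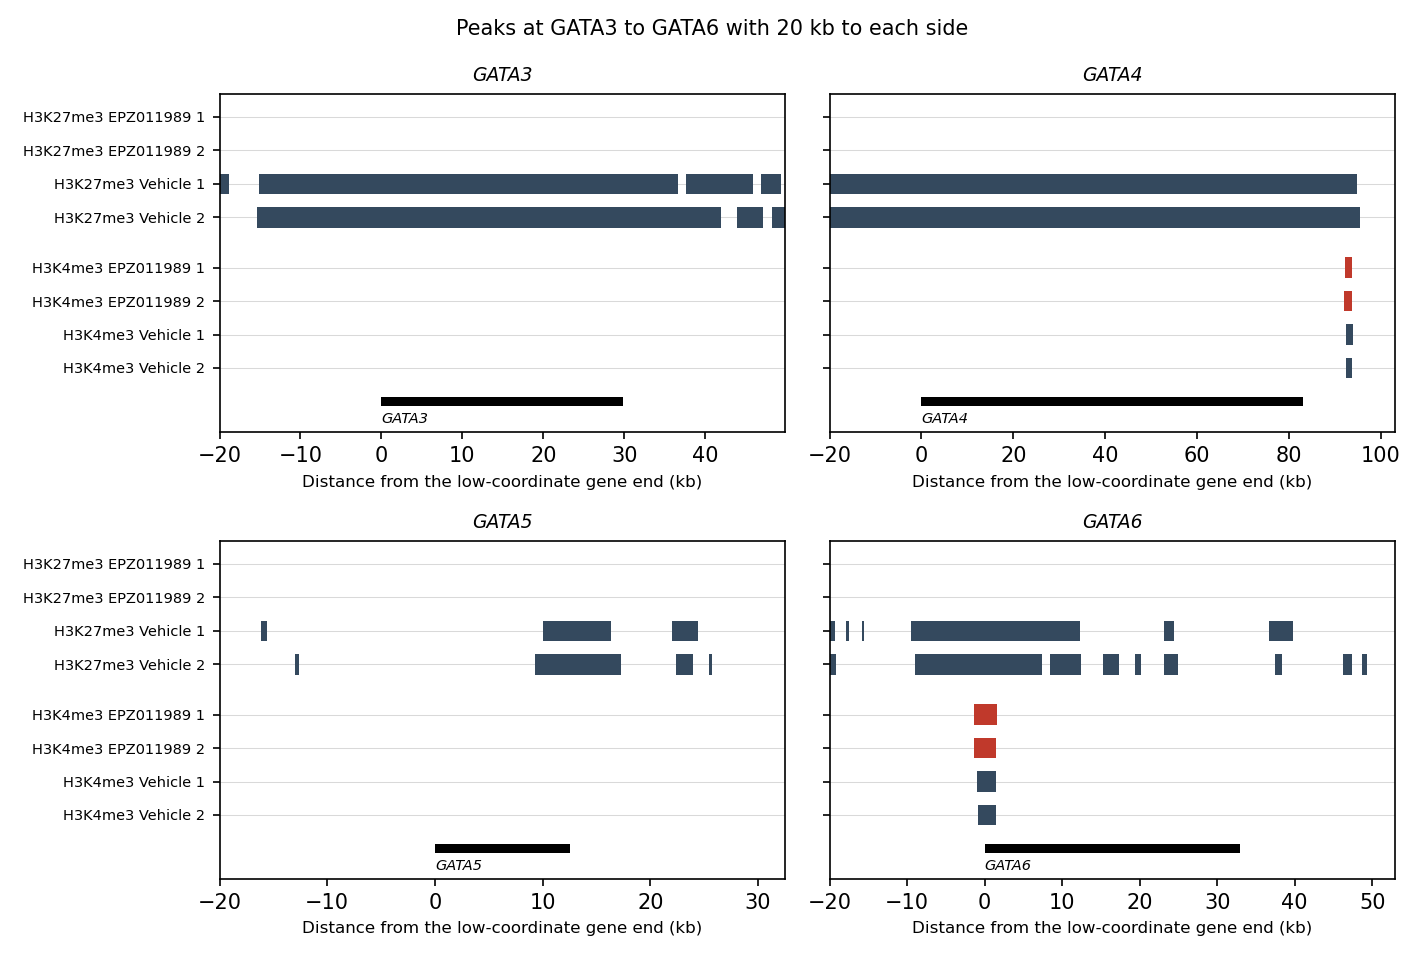
Peaks at GATA3, GATA4, GATA5 and GATA6 with 20 kb to each side (x axis, distance in kb from the low-coordinate gene end, cut off at the panel edges), 1 row per library. Bars are peaks, in red for EPZ011989 and dark blue for vehicle, and the black bar is the gene. H3K27me3 peaks appear in vehicle rows alone. H3K4me3 is seen at GATA6 in all 4 libraries and, beside GATA4, at the NEIL2 end of the H3K27me3 region.

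H3K4me3 split the 5 genes into marked and unmarked ones. GATA3, GATA4 and GATA5 had no H3K4me3 peak in either EPZ011989 or either vehicle library, whether at the gene ends or anywhere in the gene with 2500 bp to each side. Of the 7371 genes with H3K27me3 in both vehicle libraries, 26.2% likewise had no H3K4me3 peak in any library. GATA2 and GATA6 had H3K4me3 in both treatments, GATA6 at its gene ends, as did 65% of all genes in both vehicle libraries, and GATA2 inside the gene. In vehicle, 100% of the bases that either H3K4me3 library covered at GATA2 and GATA6 lay inside H3K27me3 peaks of both H3K27me3 libraries. Bulk libraries cannot tell apart both marks on the same chromosome copies from each mark in different cells. With EPZ011989 none of these bases did, since no H3K27me3 peak was left.

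Of the 2 genes, GATA2 had the larger difference in H3K4me3 between treatments. At its gene ends it had 2326 and 1133 bp in the EPZ011989 libraries and 0 bp in both vehicle libraries, so it had a peak in both libraries of one treatment and neither of the other. Such a gain was listed at 0.921% of all genes, and the opposite, a loss, at 0.14%. The difference of 1729.5 ± 400 bp (SE) did not pass (limma adjusted p = 0.283 over 13793 genes, of which 0% were called in either direction). A difference at least as large was found at 0.486% of these genes. Before adjustment, p was under 0.05 for 1160 genes in the direction of more H3K4me3 and for 204 in the other. With genes that had no peak kept in the fit, the same GATA2 difference had an SE of 245 bp and gave limma adjusted p = 1.19e-09. The GATA2 values are the same in both fits, and the one without a filter called 491 genes higher. GATA2 also acts in endothelial cells, and of 3 endothelial marker genes 2 had H3K4me3 in both EPZ011989 libraries and 1 in both vehicle libraries. Of all genes, 65% had it in both vehicle libraries. The marker added with EPZ011989 was KDR, a receptor for VEGF, with 721 and 363 bp against 0 bp in both vehicle libraries. This KDR difference did not pass (limma adjusted p = 0.450), and PECAM1 was at 0 bp in all 4 libraries. CDH5, the VE-cadherin gene, had 659 and 386 bp with EPZ011989 and 602 and 926 bp in vehicle, which overlap, with the lower mean in the EPZ011989 libraries. Their summed mean was 1064.5 bp with EPZ011989 and 764 bp in vehicle. KDR had 0 bp of H3K27me3 in both EPZ011989 libraries and 4753 and 6044 bp in vehicle. CDH5 had 0 bp against 6311 and 6407 bp, and PECAM1 had none in any library. MKL-1 is a cultured tumour line, so these markers are not read as a share of endothelial cells. Any link between them and the GATA2 values was not tested.

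The gene was not bare of H3K4me3 in vehicle, because its proximal start lies outside those end windows. There a single peak of 5552 and 4437 bp was listed in the EPZ011989 libraries, and one of 3792 and 3897 bp in the vehicle libraries. It reached 3148 and 2119 bp upstream of the proximal start with EPZ011989, against 1808 and 1930 bp in vehicle, and 2403 and 2317 bp downstream with EPZ011989, against 1983 and 1966 bp in vehicle. Both edges thus lay further out in both EPZ011989 libraries, and how many other peaks did so was not counted. The highest point lay 467 and 427 bp downstream of the proximal start with EPZ011989 and 881 and 922 bp downstream in vehicle. GATA2-AS1, a non-coding RNA gene on the other strand, starts 3998 bp downstream of the distal GATA2 start, and this start too was inside the peak in all 4 libraries. The antibody signal of the 2 genes cannot be separated there.

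What was listed with EPZ011989 alone lay at 2 other places in GATA2. A peak of 1098 and 883 bp in the EPZ011989 libraries began 40 and 173 bp downstream of the distal start, and vehicle had none. The highest point of this peak was 291 and 393 bp downstream of the distal start. Between it and the proximal peak 385 bp were left uncovered in EPZ011989 replicate 1 and 1496 bp in replicate 2. The printed bases before the distal start were covered in none of the 4 H3K4me3 libraries. A small peak of 366 and 670 bp, near the far end of the gene and 11163 and 10859 bp downstream of the distal start, was also listed with EPZ011989 and not in vehicle. The 2326 bp of EPZ011989 replicate 1 included 978 bp of the proximal peak, which in replicate 2 stopped short of the window.

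Over the whole gene with 2500 bp to each side, GATA2 had 7016 and 5990 bp of H3K4me3 with EPZ011989 and 3792 and 3897 bp in vehicle. The groups do not overlap, as was so in this direction for 23.3% of genes measured in this way. The difference was 2658.5 ± 489 bp (SE; limma adjusted p = 0.135). All of the EPZ011989 H3K4me3 there, in each library, lay on bases that H3K27me3 had covered in both vehicle libraries. A further peak, with its far edge between 4.98 and 5.24 kb upstream of the distal start, lay inside the vehicle H3K27me3 region in all 4 libraries. It was 1228 and 1025 bp wide with EPZ011989 and 1079 and 1156 bp in vehicle, and these values overlap.

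**Figure D3:**
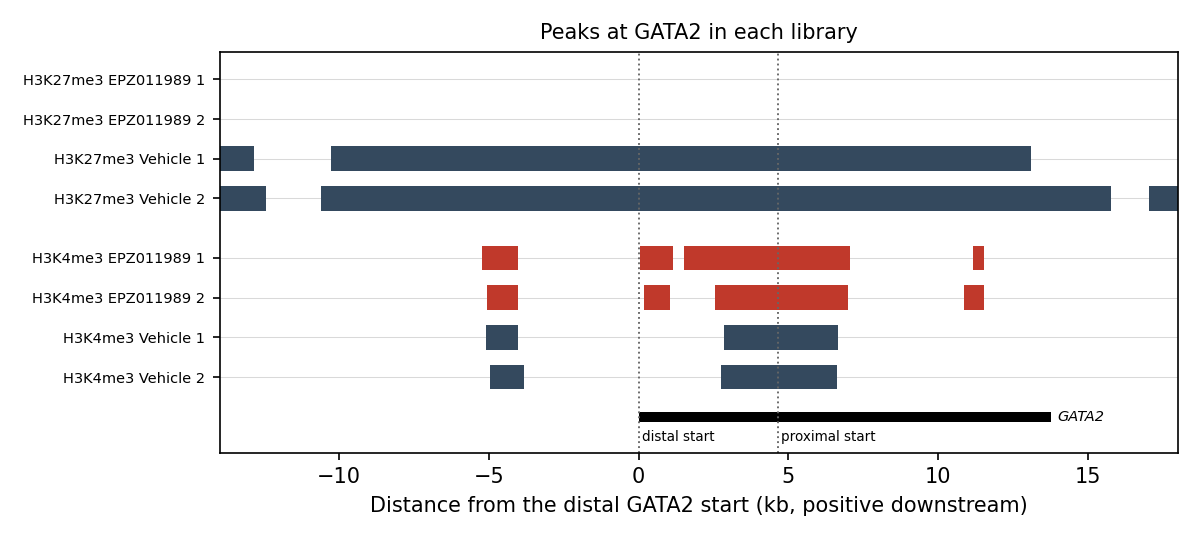
Peaks around GATA2 (x axis, distance from the distal start in kb, positive downstream), 1 row per library, in red for EPZ011989 and dark blue for vehicle. The black bar is the gene and the dotted lines are its 2 starts. The peak just inside the distal start and the small one near the far end are seen in the EPZ011989 H3K4me3 rows alone, and the H3K27me3 region in the vehicle rows alone.

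GATA6 had H3K4me3 at its start in every library. Its window held 2946 and 2938 bp with EPZ011989, against 2391 and 2271 bp in vehicle, in 1 peak each time. The groups do not overlap, and neither did they in this direction at 24.4% of the 13793 genes tested, or in the other at 12.7%. The difference was 611 ± 195 bp (SE; limma adjusted p = 0.402), and 9.33% of tested genes had one at least as large. The peak reached 1.38 and 1.42 kb upstream of the start with EPZ011989 and 0.963 and 0.799 kb in vehicle. Downstream it reached 1563 and 1515 bp with EPZ011989 and 1427 and 1471 bp in vehicle, so that most of the added width was upstream. GATA6-AS1, a non-coding RNA gene that starts 621 bp upstream and runs the other way, had its start inside the peak in all 4 libraries.

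The median H3K4me3 peak was 1696.5 and 1609 bp wide in the EPZ011989 lists, against 1453 and 1354 bp in vehicle, and the EPZ011989 libraries had the higher background. Set against the median of its own list, the proximal GATA2 peak was 3.27 and 2.76 times as wide with EPZ011989 and 2.61 and 2.88 times in vehicle. On this scale the groups overlap. The GATA6 peak was 1.74 and 1.83 times as wide as the median with EPZ011989 and 1.65 and 1.68 times in vehicle. These values do not overlap, but the gap is narrow, and how many other peaks separated on this scale was not counted. The fold of the proximal GATA2 peak was 52.5 and 35.2 with EPZ011989 and 14.6 and 13.5 in vehicle, which do not overlap. In its own list, 28.5% and 17.5% of peaks had at least that fold with EPZ011989, against 55.2% and 53.2% in vehicle. The GATA6 peak had folds of 61.4 and 32.5 with EPZ011989 and 27.98 and 31.76 in vehicle. These folds do not overlap, but the gap, from 31.76 to 32.5, is narrow. The EPZ011989 replicates lie much further from each other than that, so no gain in fold at GATA6 is read from it. The folds of the upstream GATA2 peak, 31.5 and 13.8 with EPZ011989 against 21.6 and 17.2 in vehicle, overlap. At least that fold was reached by 46.9% and 56.7% of peaks with EPZ011989 and by 48.9% and 49.4% in vehicle. How many other peaks had folds that separate between treatments was not counted. The part of background in these widths and folds was not tested. H3K4me3 in both EPZ011989 libraries was found at 1.55% of the 18182 RefSeq promoters with none in vehicle. Of the 3063 RefSeq promoters (250 bp before to 50 bp after a start) with H3K27me3 in both vehicle libraries and no vehicle H3K4me3, 8.33% had H3K4me3 in both EPZ011989 libraries. The distal GATA2 promoter is among these 3063 but not among the 8.33%. The peak overlapped it by 10 bp in EPZ011989 replicate 1 and by 0 bp in replicate 2.

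**Figure D4:**
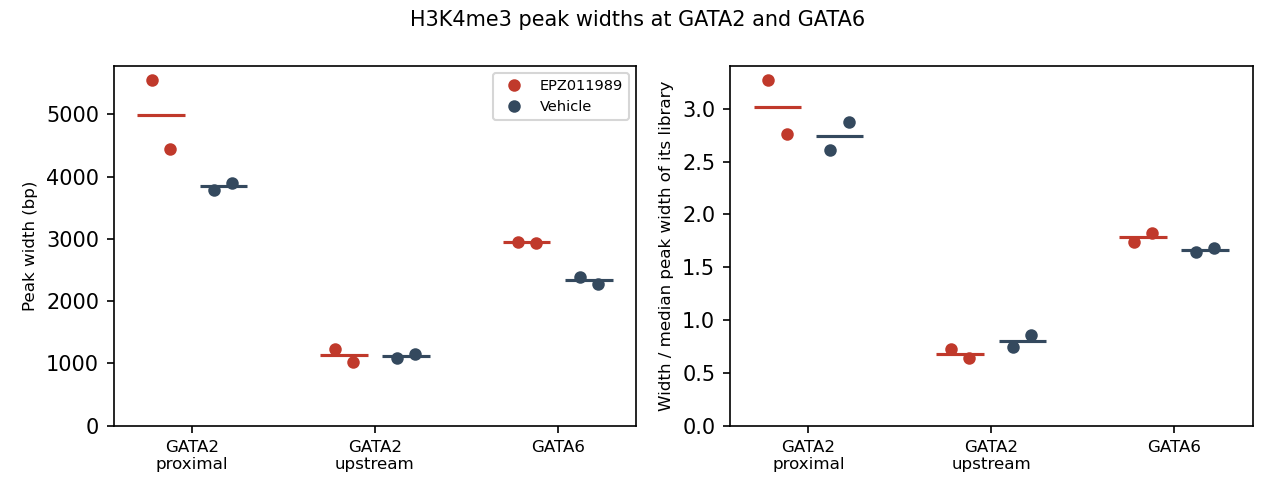
Width of 3 H3K4me3 peaks in bp (left) and relative to the median peak width of the same library (right). Each point is 1 library, EPZ011989 in red to the left of vehicle in dark blue, and bars are means of 2 libraries. The proximal GATA2 peak and the GATA6 peak are wider in bp with EPZ011989, but the relative widths of the proximal GATA2 peak overlap between treatments, and the upstream GATA2 peak is not wider.

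Genes whose 8 values (4 H3K27me3 and 4 H3K4me3 libraries) were closest to each member were found by Euclidean distance. For GATA2 they were GRIK5, a glutamate receptor subunit gene, at 1415 bp, CLCF1, a cytokine gene, at 1437 bp and TSPAN18, a tetraspanin gene, at 1456 bp, and no gene lay within 1000 bp. GRIK5 had 1434 and 994 bp of H3K4me3 with EPZ011989 and 452 and 0 bp in vehicle. For GATA6 they were PYGO1 at 267 bp, RAB40B at 283 bp and MDGA2 at 289 bp, among 145 genes within 1000 bp. For GATA5 they were ALKAL1, CGB3 and A4GALT, at 5, 16.3 and 34 bp, among 360 genes within 1000 bp. GATA3 and GATA4 had identical values, and 229 genes, each other included, matched either of them exactly. Within 1000 bp of GATA3 and GATA4 there were 322 genes. By this count GATA2 had the least common values of the 5 and GATA5 the most common.

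A list of 31 partners and relatives of GATA factors was read in the same way. In both vehicle libraries 22 of the 31 carried H3K27me3, against 36.9% of all genes, and at none in either EPZ011989 library. By limma 18 of 23 tested were lower and 0 higher (60.2% and 0% of all genes tested), and the median difference was −4742 bp. The largest falls were at TBX5, a heart and forelimb regulator, and TBX21, the T-bet gene of T helper cells, each with 0 bp in both EPZ011989 libraries and 10002 bp in both vehicle libraries. Next were the cardiac partner gene NKX2-5, with 0 bp in both EPZ011989 libraries against 8098 bp in both vehicle libraries, and TAL1, a blood partner gene, with 0 bp in both EPZ011989 libraries against 7726 and 8348 bp. End windows that met in a short gene were merged, so its window is under 10002 bp. These falls are therefore not ranked on equal lengths. The X-linked family member GATA1, the erythroid factor gene, had 0 bp in both EPZ011989 libraries and 5514 and 4839 bp in vehicle. It had no H3K4me3 in any library, as at GATA3, GATA4 and GATA5.

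H3K4me3 at the partners gave no call. It was listed in both EPZ011989 libraries at 19 and in both vehicle libraries at 18 of the 31, and at none was it gained or lost. In the limma test 0 of 20 were called in either direction. Both EPZ011989 values were above both vehicle values at 8 and below them at 2, against 24.4% and 12.7% of all genes tested, and the median difference was 210.5 bp, against 52.0 bp over all genes tested. ZFPM2, a cofactor of GATA4 in the heart, had 2340 and 2237 bp with EPZ011989 and 1952 and 1944 bp in vehicle (limma adjusted p = 0.646). ZFPM1, the FOG1 cofactor of GATA1, had 2899 and 2464 bp with EPZ011989 and 2476 and 2995 bp in vehicle, which overlap. TRPS1, a GATA-type zinc finger repressor gene, had the largest difference, with 3321 and 3081 bp with EPZ011989 against 2004 and 2206 bp in vehicle (limma adjusted p = 0.209). HAND2, a heart and neural crest regulator gene, had 9139 bp in each of the 4 libraries and no H3K27me3. GATA1, ZFPM1, ZFPM2, TRPS1 and HAND2 were picked for naming after their values were seen.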

How the data were processed

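The authors deposited 1 peak list per library on hg38, per the submitters' processing notes, which name MACS2 2.1.1.20160309, Bowtie2 2.2.9, SAMtools 0.1.19 and FastQC. H3K27me3 lists are broad peaks and the others narrow peaks. Control, thresholds, duplicate handling and spike-in use are not given in the sources used here. In the deposited lists each peak has a fold (a ratio of pileup to local background), a −log10 p and −log10 q and a whole-number score.

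Gene windows took 2500 bp to each side of both ends of protein-coding genes, without scaling between libraries, and a peak counted with 1 bp of overlap. The end windows of a short gene were merged where they met. Covered bases were compared in R 4.3.3 with limma 3.58.1 (trend, robust) leaving out genes at 0 in all 4 libraries of a mark. The fit was tested on simulated data. Background per base was solved from the most frequent fold of a list and its p under a Poisson model, which assumes that no control library was used. Overlaps were computed with pandas 2.3.3, numpy 2.4.6 and, for the Poisson model, scipy 1.17.1 under Python 3.11.15. Of 2 + 2 libraries an exact permutation test gives no p under 0.333, so none was run. Widths and positions are described without a test. All 5 genes are named with their values. Of the partner list, genes with H3K4me3 gained or lost or called, and the 4 with the largest H3K27me3 difference, were to be named, and for each member the 3 most alike genes. The members and lists were chosen with earlier results of these data known. One marker gene is not reported here. Replicate numbers were not taken as pairs. Alternatives were windows of 1000 and 5000 bp, the whole gene, peaks with −log10 q of 5 or more, no filter, quantile normalization, a replicate block, 200 bp of overlap and leaving out each library.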

Additional observations from a re-analysis of the deposited data

How the results depend on the processing

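H3K27me3 was lower at 5783 of 9600 genes tested, at 3301 of 4470 with −log10 q of 5 or more, where fewer genes were left to test, and at 3209 to 3212 without either EPZ011989 library. Counts of higher genes ran from 0 to 7 there. Without vehicle replicate 1 or 2 only 41 of 8917 or 8067 genes kept any H3K27me3 spread between replicates, so calls of that limma fit are not given. For H3K4me3, with 0 higher and 0 lower, windows of 1000 bp gave 2 higher and 4 lower, those of 5000 bp 35 higher. There were 4 higher over whole genes, 491 higher and 32 lower with no filter, and 80 higher and 6 lower after quantile normalization. The robust step could not be fitted for H3K27me3 with no filter and was left out there. Of 77 GATA values under alternatives none changed sign. For H3K27me3 the sign could not change, since no EPZ011989 peak lay within 20 kb of these genes. GATA2 H3K27me3 did not pass with windows of 1000 bp (limma adjusted p = 0.0829), with no filter (0.0550), with the replicate block (0.139) or without either EPZ011989 library. GATA2 H3K4me3 passed only with no filter. For the other 5 GATA results no call changed where one was made, and for H3K27me3 none was made without a vehicle library. The replicate block gave 4555 lower genes for H3K27me3 and 0 called for H3K4me3; deviations of same-numbered libraries correlated at 0.0162 and −0.0297 over genes, so the numbers were not taken as pairs. Peak counts at the GATA windows, 7 with EPZ011989 and 2 in vehicle for H3K4me3, were the same with 200 bp of overlap and with the stricter q. Depth limits the reading of absent peaks, above all in the H3K27me3 EPZ011989 libraries. The causes of these shifts were not tested.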
